A study of Mus musculus with 2 samples.

Results

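Peripheral nerve fibres are wrapped by Schwann cells, whereas fibres of the brain are wrapped by oligodendrocytes, and each cell type builds its sheath from a partly different set of proteins. The 5 genes described here, Pmp22, Prx, Egr2, Pmp2 and Mal, are textbook genes of the peripheral sheath. They were taken by name from the 45578 genes of the deposited table, by stripping the transcript number from each transcript name, and all 5 were found. The names were chosen by their known role after the footprint counts of these libraries had been seen, so the level and the ratio of the replicates count as selected on. Both are given as a description, with no test.

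Polysomes were isolated from mouse brain at postnatal day 5 and treated with nuclease. The pieces of mRNA that survive inside a translating ribosome, here called footprints, were then sequenced and counted. The 2 samples are biological replicates of 1 control group (n = 2). The labels give the genotype Smn+/-; SMN2tg/0, which means that 1 of the mouse Smn copies was disrupted and a human SMN2 transgene was carried, on the FVB background. These features were shared by both samples, no other genotype was analysed, and the labels do not say whether a sample came from 1 animal. The deposited totals were 1866831 footprints in replicate 1 and 5261878 in replicate 2, a ratio of 2.82. Levels are given as CPM, the count scaled to the total of that library, with an exact Poisson 95% interval. These intervals cover counting error only and treat each counted footprint as independent. PCR copies are not independent molecules, so if they were counted the intervals are too narrow. Smn1 itself had 71 footprints in replicate 1 and 253 in replicate 2.

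In a myelinating Schwann cell, the transcription factor Egr2 acts with Sox10 and the Nab cofactors to switch on the myelin genes. Pmp22 and Mal are membrane proteins of compact myelin that span the membrane several times. Periaxin, encoded by Prx, is a scaffold that ties the outer Schwann cell membrane to the dystroglycan complex through Drp2. Pmp2 is a fatty acid binding protein on the cytoplasmic face of the sheath. Several of these genes are also known outside peripheral nerve. Mal is a component of oligodendrocyte myelin as well, Pmp22 is made by fibroblasts, endothelium and epithelia, and Egr2 marks hindbrain segments in the embryo and responds to activity in neurons.

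Footprints were found on 4 of the 5 genes, and in small numbers except for Pmp22. In bulk brain, fewer cells of a type and less RNA per cell cannot be told apart, and neither can a high level in few cells and a low level in many. Pmp22 had 44 footprints in replicate 1, a level of 23.6 CPM (17.1 to 31.6). It had 235 footprints in replicate 2, a level of 44.7 CPM (39.1 to 50.8). The intervals did not overlap, and replicate 2 was the higher, with a mean level of 34.1 ± 14.9 CPM (SD, n = 2).

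Mal had 7 footprints in replicate 1, or 3.75 CPM (1.51 to 7.73), and 38 in replicate 2, or 7.22 CPM (5.11 to 9.91). Replicate 2 was again the higher, but the counting intervals overlapped. The mean level of Mal was 5.49 ± 2.46 CPM (SD, n = 2).

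Egr2 had 7 footprints in replicate 1, or 3.75 CPM (1.51 to 7.73), and 19 in replicate 2, or 3.61 CPM (2.17 to 5.64). Its level was nearly the same in each library, at 3.68 ± 0.0981 CPM (SD, n = 2), although counts this small leave wide intervals. Prx had 4 footprints in replicate 1, or 2.14 CPM (0.584 to 5.49), and 16 in replicate 2, or 3.04 CPM (1.74 to 4.94). The intervals of Prx overlapped, and its mean level was 2.59 ± 0.635 CPM (SD, n = 2).

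Pmp2 had no footprint in either library. Taking 3 counts as the floor, a level of up to about 1.61 CPM in the shallower library and 0.570 CPM in the deeper one could have gone uncounted; the wider two-sided exact intervals reach 1.98 and 0.701 CPM. Translation of Pmp2 was therefore not detectable at this depth. Pmp22 held most of the footprints of the set, since all 5 genes together had 62 in replicate 1 and 308 in replicate 2.

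**Figure D1:**
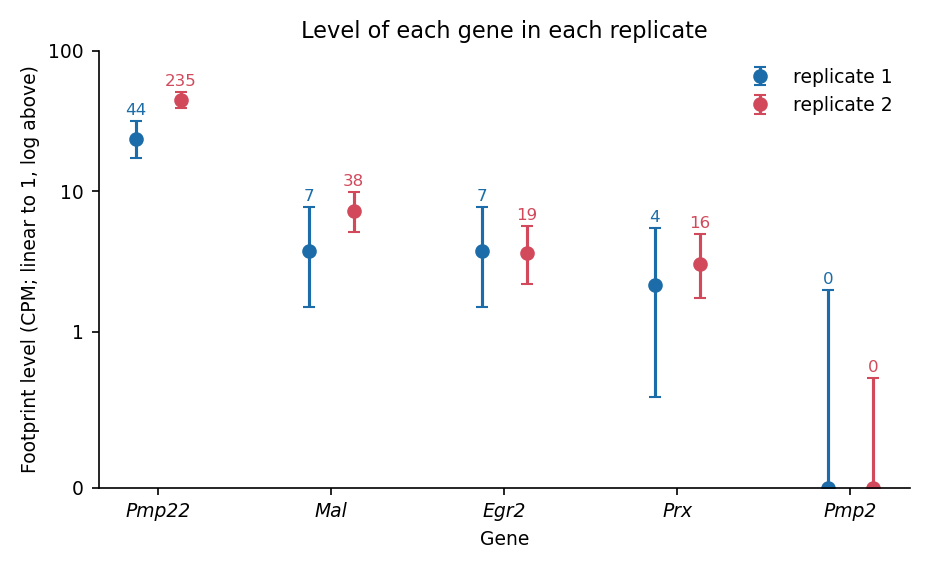
Footprint level of each gene in CPM (vertical axis, linear from 0 to 1 and logarithmic above) in replicate 1 (blue) and replicate 2 (red). Bars are exact Poisson 95% intervals and the numbers are footprint counts; the intervals of Pmp22 do not overlap, those of Mal, Egr2 and Prx do, and Pmp2 is at 0 in each replicate.

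Levels of different genes can be compared only per length. For this, footprints on coding transcripts were divided by the mean coding length of those transcripts, weighted by count, to give RPKM, the CPM per kilobase of coding sequence. Pmp22 stood highest, with 42.1 RPKM in replicate 1 and 85.8 in replicate 2 over a coding length of 483 nucleotides. Mal followed at 8.83 and 17.0 RPKM. Egr2 had 3.09 and 2.98 RPKM, and Prx, with the longest coding sequence of the set, had 0.712 and 0.757 RPKM. Pmp2 was at 0 in each replicate.

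The order was therefore Pmp22, Mal, Egr2, Prx and Pmp2, and the replicates of neighbouring genes did not overlap. Counting error blurred parts of it. In replicate 1 the interval of Mal, 3.55 to 18.2 RPKM, overlapped that of Egr2, 1.24 to 6.37, and the latter overlapped that of Prx, 0.194 to 1.82. In replicate 2 the intervals of Mal (12.0 to 23.3), Egr2 (1.79 to 4.65) and Prx (0.391 to 1.32) were separate. For Pmp2, whose coding sequence is short, the floor of 3 counts corresponds to 1.43 RPKM in replicate 2, so its place below Prx is not settled.

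Ranked among all coding genes whose mean count reached 10, the mean RPKM of Pmp22 lay at percentile 79.3 and that of Mal at percentile 38.5. Egr2 lay at percentile 9.32 and Prx at percentile 0.856. Among the genes ranked, Pmp22 was thus well inside the upper part, while Egr2 and Prx were near the bottom. Genes with a lower mean count were not ranked. Prx had a mean count of exactly 10 and a long coding sequence, so its low rank depends on where that bound lies.

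The footprints of each gene were spread over its annotated transcripts. For transcripts that share coding sequence, a fragment of this length cannot show which of them it came from. How such fragments were placed was examined on 88 pairs of transcripts of the same gene that have equal transcript, coding and untranslated lengths, of which 72 had counts. The squared difference of paired counts, divided by their sum, averaged 0.966. Counting every fragment on each transcript of a pair would give 0 where their sequences are the same, and independent placement gives 1. The pairs were matched on length and not on sequence, and a pair with a summed count of 1 in a library gives 1 by construction. This check is therefore limited. Transcript counts were summed per gene.

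Pmp22 is known for alternative first exons that leave the protein unchanged, and its 4 coding transcripts all had a coding length of 483 nucleotides. In replicate 1, Pmp22-001 had 10 footprints, Pmp22-002 had 9, Pmp22-003 had 8 and Pmp22-005 had 11. In replicate 2 the same transcripts had 60, 60, 46 and 52 footprints. The counts were close to even, although the transcripts ranged from 723 to 1822 nucleotides in whole length. The leading transcript by summed count, Pmp22-001, held 22.7% of the gene's footprints in replicate 1 and 25.5% in replicate 2, with 95% intervals by the Clopper-Pearson method of 11.5 to 37.8 and 20.1 to 31.6. A non-coding transcript, Pmp22-004, held 6 and 17 footprints. These counts do not separate the first exons, because the transcripts share the coding sequence.

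Periaxin is made in a long and a short form, the short one arising from a retained intron. Prx-001 and Prx-004 are annotated with the long coding sequence of 4176 nucleotides and Prx-002 with a short one of 447 nucleotides. In replicate 1 these transcripts had 1, 2 and 1 footprints. In replicate 2 each of them had 4, as did the non-coding Prx-003. Counts this small set no order between the long and the short form.

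Mal-001, with the full coding sequence of 462 nucleotides, had 5 footprints in replicate 1 and 30 in replicate 2. Mal-002, with a coding sequence of 294 nucleotides, had 2 and 8. The share on Mal-001 was 71.4% (29.0 to 96.3) in replicate 1 and 78.9% (62.7 to 90.4) in replicate 2. Mal-001 thus had more footprints in each library, but the interval of replicate 1 includes an even share. Mal-001 is also the longer transcript, at 2778 nucleotides against 486. A fragment from sequence that both share cannot show its source, so these counts do not rank the forms.

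Egr2 had 7 annotated coding transcripts. Egr2-001, with the longest coding sequence of 1413 nucleotides, had 3 footprints in replicate 1 and 6 in replicate 2. Egr2-003 had 2 and 7, and Egr2-002 had 2 and 2. The remaining 4 transcripts, which are short, had none in replicate 1, and in replicate 2 none of them had more than 2.

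**Figure D2:**
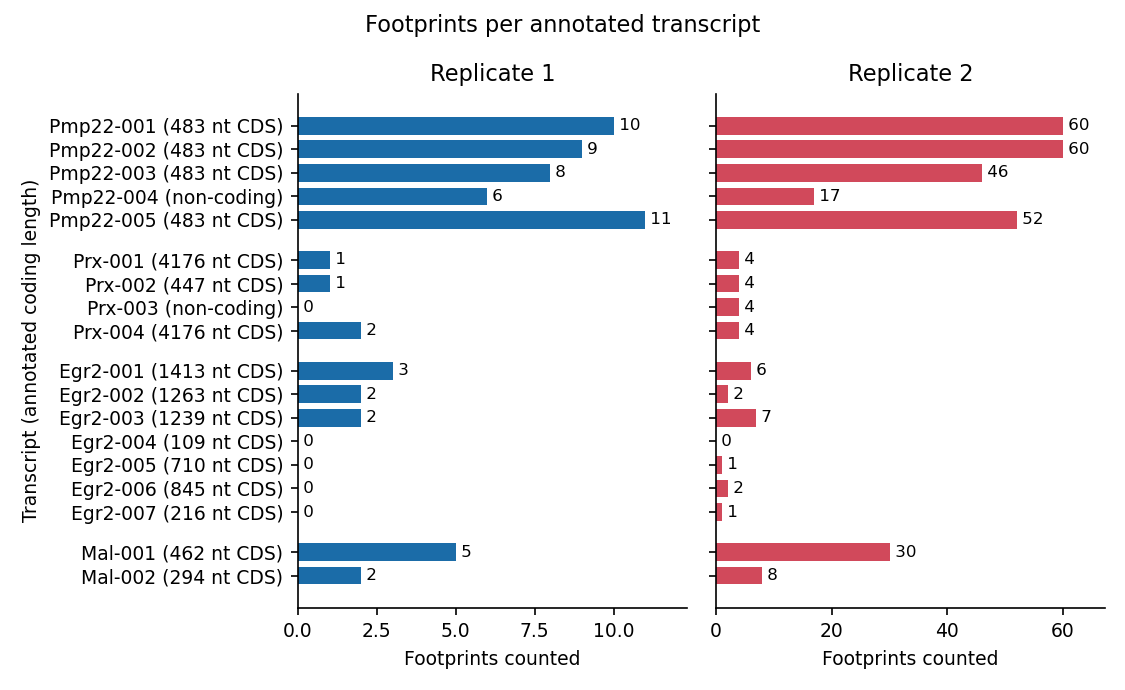
Footprints counted (horizontal axis, starting at 0, with a separate scale for each replicate) on every annotated transcript of Pmp22, Prx, Egr2 and Mal, with the annotated coding length in brackets. The 4 coding transcripts of Pmp22 have 8 to 11 footprints in replicate 1 and 46 to 60 in replicate 2, and Mal-001 leads Mal-002 in each replicate.

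Replicates were compared as the log2 ratio of replicate 2 over replicate 1, after TMM scaling (trimmed mean of M values, which sets the bulk of genes to no difference) and with 0.5 CPM added to each level. Of the 5 genes, 4 reached the minimum mean count of 10, which Prx met exactly, and Pmp2 did not. Pmp22 had a log2 ratio of 0.78, with an exact counting interval of 0.33 to 1.29. Mal had nearly the same ratio, 0.75, with a much wider interval of -0.36 to 2.23. Prx had a ratio of 0.32 (-1.25 to 2.42) and Egr2 a ratio of -0.16 (-1.49 to 1.31).

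Pmp22 and Mal were at least 1.5-fold higher in replicate 2, a bound passed in that direction by 10.7% of the 16427 genes tested. None of the 4 was 1.5-fold lower, against 8.43% of all genes tested. The libraries hold few counts for Mal, and among the 3504 genes with a mean count of 10 to under 30 the share past the bound was 24.0%. Among the 3217 genes with a mean count of 100 to under 200, where Pmp22 lies, it was 5.81%. At a bound of 2-fold, 0 of the 4 genes passed. The ratio of Pmp22 ranked at percentile 93.8 of all genes tested and that of Mal at 93.1. Prx ranked at 75.9 and Egr2 at 34.8. The comparison of replicates belongs to how the genes were chosen, so nothing is read from these counts.

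**Figure D3:**
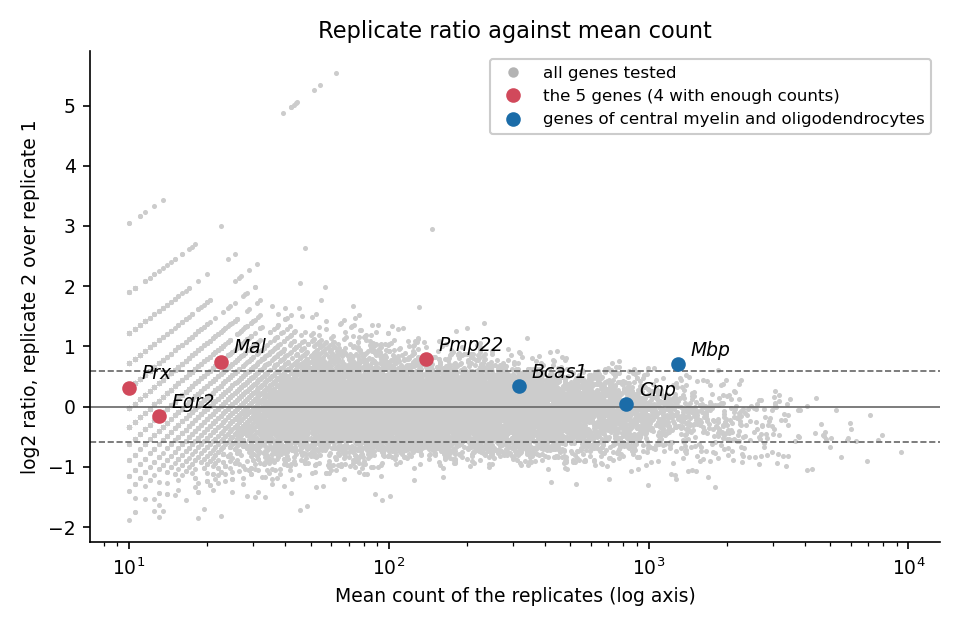
The log2 ratio of replicate 2 over replicate 1 (vertical axis) against the mean count (horizontal axis, logarithmic) for the 16427 genes tested (grey), with Pmp22, Mal, Egr2 and Prx in red and Mbp, Cnp and Bcas1 of central myelin and oligodendrocytes in blue. Dashed lines mark 1.5-fold; Pmp22 and Mal lie above the upper line at 0.78 and 0.75, Egr2 and Prx lie between the lines, and the grey points spread most widely at low counts.

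The other genes were taken from lists of pathway members and cell type markers, which like the 5 genes were written with earlier results known. For these, a two-sided exact binomial test was run on every gene, with p-values adjusted by the Benjamini-Hochberg method over all 16427 genes. It compares 2 libraries, not conditions, and covers counting noise alone. At an adjusted p under 0.05 it called 5.95% of genes as higher and 11.5% as lower in replicate 2. That split depends on the scaling: 34.2% of called genes were higher with TMM and 60.7% with library totals.

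The list of other genes of peripheral myelin and the Schwann lineage includes several that the brain is also known to use. Of the 17 such genes reported here, 10 reached the count filter, and the exact binomial test called 0 of them as higher and 2 as lower in replicate 2; at an unadjusted p under 0.05 the numbers were also 0 and 2. Their median log2 ratio was 0.05, against 0.01 for all genes tested. Cadm4, an adhesion molecule of the axon and glia contact that is also made in the brain, had a ratio of -0.83. Sox10, a transcription factor of both Schwann cells and oligodendrocytes, had 104 and 232 footprints and a ratio of -0.46 (exact binomial test, adjusted p = 0.0453). Ndrg1, Fgd4 and Mtmr2, which like many genes of inherited neuropathies are made in many tissues, had ratios of 0.20, 0.29 and 0.11 and were not called. Drp2, the partner of periaxin, had 89 and 321 footprints, or 47.7 and 61.0 CPM. Sox10 and Drp2 were singled out after their values were seen.

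The genes of this list that are known from Schwann cells or the neural crest spanned a wide range of counts. Ngfr, a neurotrophin receptor of immature Schwann cells that neurons also make, had 33 footprints in replicate 1 and 126 in replicate 2, and Sox10 was higher still. Cdh19 had 1 footprint in replicate 1 and 2 in replicate 2, Dhh had 3 and 3, and Foxd3 had 5 and 2. Gldn, a protein of the peripheral node of Ranvier, had 1 and 13, and Ncmap, a membrane protein of non-compact myelin, had 0 and 5. These 6 genes were picked out after their values were seen. Cdh19, Dhh, Foxd3, Gldn and Ncmap were too low for the count filter, as was Pmp2. Cldn19, with 4 footprints in replicate 1 and 11 in replicate 2, and Sh3tc2, with 4 and 3, were the remaining genes of this list below it. Whether the brain samples held Schwann cells was not tested.

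The list around Egr2 holds its regulators, its cofactors and the neuregulin receptors that act above it. Of 11 listed genes, all reached the filter, and the exact binomial test called 0 as higher and 5 as lower in replicate 2, with 1 and 5 at an unadjusted p under 0.05. The 5 were Yy1, Jun, Sox2, Pou3f1 and Pou3f2, with log2 ratios from -0.77 for Sox2 to -0.53 for Jun, and all of them are also made by neural cells of the brain. Nab2, a cofactor that binds Egr2, had 38 and 108 footprints, or 20.4 and 20.5 CPM. Erbb3, the neuregulin receptor of Schwann cells, had 1 and 20 footprints and a ratio of 1.97 (exact binomial test, adjusted p = 0.153); Nab2 and Erbb3 were singled out after their values were seen.

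The close relatives of the 5 genes differed from them in level per length. Among EGR factors, Egr1 had 32.6 ± 6.45 RPKM, Egr3 12.0 ± 1.26 and Egr4 7.95 ± 2.46 (SD, n = 2), against 3.03 ± 0.0809 for Egr2. Egr2 was thus the lowest of the 4 factors, and the replicates of Egr2 did not overlap those of the others. Egr2 rests on 7 and 19 footprints and Egr4 on 26 and 47, so the margin between these genes is uncertain. All 3 of these relatives were lower in replicate 2, and 1 of 3, Egr1, was called lower, at a ratio of -0.53 (exact binomial test, adjusted p = 0.0140).

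Pmp22 belongs to a family with Emp1, Emp2 and Emp3. Emp2 had 72.7 ± 0.808 RPKM, Emp1 34.1 ± 0.383 and Emp3 20.6 ± 1.44 (SD, n = 2), so the replicates of Pmp22, at 42.1 and 85.8, lay on either side of Emp2 and above Emp1 and Emp3. In replicate 1 the counting interval of Pmp22, 29.8 to 57.8 RPKM, held Emp1 at 34.4, while in replicate 2 its interval, 74.8 to 98.0, lay above Emp1 at 33.8. The log2 ratios of Emp1, Emp2 and Emp3 ran from -0.15 to 0.06, and the exact binomial test called 0 of 3, also at an unadjusted p under 0.05.

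The fatty acid binding proteins of the brain were abundant where Pmp2 was at 0. Fabp7, the form of radial glia, had 1035 ± 274 RPKM, Fabp5 had 311 ± 93.5 and Fabp3 had 140 ± 1.26 (SD, n = 2). Fabp4, the form of fat cells, had 4 and 3 footprints. Fabp5 and Fabp7 were called lower in replicate 2 by the exact binomial test, at ratios of -0.70 and -0.67, and Fabp3 was not called.

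Of the relatives of Mal, Mal2 had 91.7 ± 25.3 RPKM, Cmtm5 39.8 ± 3.22, Marveld1 23.6 ± 1.29 and Plp2 22.8 ± 2.40 (SD, n = 2), all with means above the 12.9 ± 5.78 of Mal. In replicate 1 the counting interval of Mal, 3.55 to 18.2 RPKM, lay below all of them. In replicate 2 its interval, 12.0 to 23.3, held Plp2 at 21.1 and Marveld1 at 22.7, so the order of Mal and these genes is not settled there. Mal2 was called lower in replicate 2 by the exact binomial test, at -0.69, and the other 3 were not called. The dystroglycan gene Dag1, at 110 ± 7.24 RPKM, was far above Prx, at 0.735 ± 0.0324. The large scaffold relatives Ahnak, at 1.30 ± 0.186, and Ahnak2, at 1.53 ± 0.113, had means above that of Prx by small margins. In replicate 1 the counting interval of Prx, 0.194 to 1.82 RPKM, held Ahnak at 1.44 and Ahnak2 at 1.61. In replicate 2 its interval, 0.391 to 1.32, held Ahnak at 1.17 but not Ahnak2 at 1.45. The order of Prx and Ahnak is therefore not settled. None of the 4 genes listed with periaxin was called, and 0 of 4 had an unadjusted p under 0.05 in the exact binomial test.

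Central myelin genes gave the nearest comparison, because Mal is a component of both kinds of sheath. Of the 14 genes reported here, 12 reached the filter, and the exact binomial test called 5 as higher and 0 as lower in replicate 2, against 6 and 0 at an unadjusted p under 0.05. Their median log2 ratio was 0.46. Mbp, a major protein of compact myelin, had 431 and 2158 footprints and a ratio of 0.70. Mag, an adhesion molecule of the inner sheath, had 116 and 494 and a ratio of 0.47. Bcas1, a gene of newly myelinating oligodendrocytes, had 129 and 503 and a ratio of 0.34, and Cnp, an enzyme of non-compact myelin, had 395 and 1247 and a ratio of 0.04. Over the 12 genes that reached the filter the ratios ran from -0.27 to 1.47, and those of Pmp22 and Mal, 0.78 and 0.75, lay inside that range. The ratios of Pmp22 and Mal were selected on, so no likeness is read from them, and the difference between the genes was not tested. Opalin, a late oligodendrocyte gene, was at 0 in each library.

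**Figure D4:**
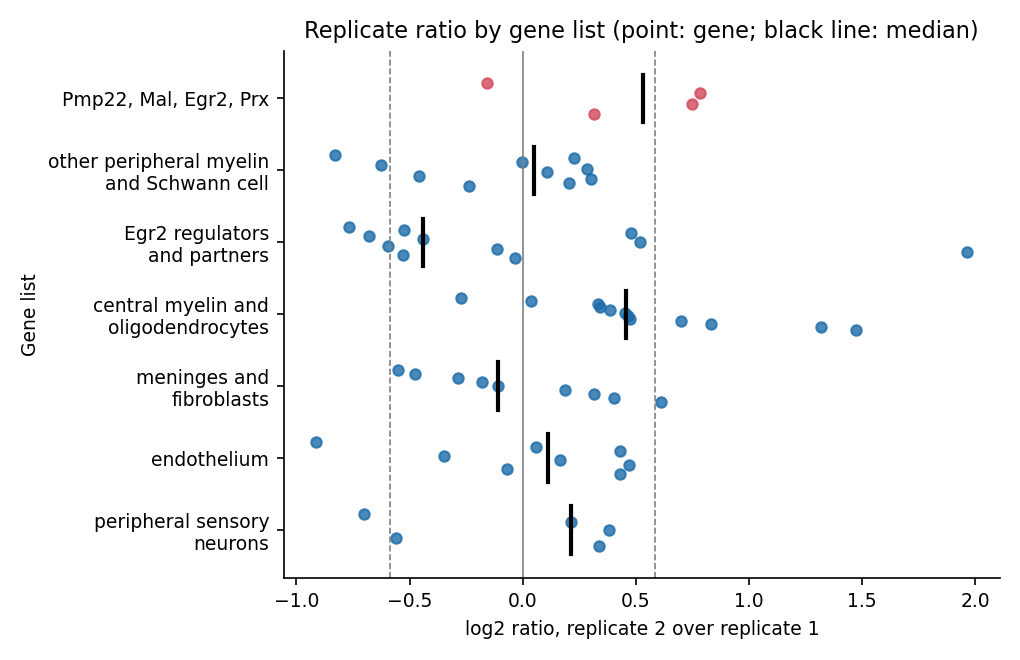
The log2 ratio of replicate 2 over replicate 1 (horizontal axis) for each gene that reached the count filter, by list, with the 4 peripheral myelin genes in red, the other lists in blue, list medians as black lines and 1.5-fold as dashed lines. In the central myelin list 11 of 12 genes lie above 0, against 8290 of all 16427 genes tested. In the list of other peripheral myelin genes 5 of 10 lie above 0, and in the Egr2 list 3 of 11. The lists of meninges, endothelium and sensory neurons lie on each side of 0.

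Markers of other cells and regions that could carry these genes are given beside the ratios, and their part in them was not tested. Summed over its 14 genes, the central myelin list had 729 CPM in replicate 1 and 1060 in replicate 2. The 9 genes of meninges and fibroblasts had 1415 and 1337 CPM, of which Ptgds alone had 630 and 607. Of these genes 1 was called higher, Dcn at a ratio of 0.61. The 3 called lower were Ptgds at -0.18, Col1a1 at -0.55 and Col1a2 at -0.28. The 8 endothelial genes had 316 and 293 CPM, with 0 called higher and 1 lower by the exact binomial test, and 2 and 1 at an unadjusted p under 0.05. The 8 genes of peripheral sensory neurons had 53.0 and 58.2 CPM, and 0 of the 5 that reached the filter were called by the exact binomial test, with 1 at an unadjusted p under 0.05. Prph had the most, 17.1 and 24.5 CPM. Those below the filter were Avil with 4 and 14 footprints, Scn10a with 2 and 3, and Trpv1 with 1 and 2. Which cells the footprints of this list came from was not tested. The 5 genes of choroid plexus had 635 and 338 CPM, but most of that was Ttr, the 1 gene of the list called lower; the other 4 summed to 52.5 and 60.8 CPM. The 5 genes of astrocytes had 1483 and 1450 CPM, with 1 called lower, and the 5 of neurons had 3511 and 2391, with 4 called lower. In these last 3 lists the exact binomial test called 0 genes as higher, also at an unadjusted p under 0.05. No gene of these lists, central myelin aside, was at 0 in either library.

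The hindbrain list is of interest because Egr2 is a hindbrain segment gene. Its 5 genes reported here, all Hox genes, had 3 footprints or 1.61 CPM in replicate 1 and 76 footprints or 14.4 CPM in replicate 2. Hoxb3 had 2 footprints in replicate 1 and 38 in replicate 2 and was called higher, with a log2 ratio of 2.19 (exact binomial test, adjusted p = 0.0192). Hoxb4 had 0 and 17, Hoxa3 had 1 and 12, Hoxa2 had 0 and 7, and Hoxb2 had 0 and 2; these were picked out after their values were seen. All 5 Hox genes thus had more footprints in replicate 2, by wider margins than the depth ratio of 2.82, except that the margin of Hoxb2 rests on 2 footprints. Egr2 had 7 and 19, a margin below that ratio.

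The listed genes nearest to each of the 4 detected genes were found from the distance between log2 RPKM values over the 2 samples, among 91 candidates. Mal was nearest to Ugt8a, an enzyme of myelin lipid synthesis, at a distance of 0.0692, followed by Prph of the sensory neuron list at 0.398. Ugt8a had 8.57 and 17.6 RPKM. Pmp22 was nearest to Dcn, a proteoglycan of connective tissue, at 0.314, followed by the oligodendrocyte gene Tspan2 at 0.453. Egr2 was nearest to Slco1a4, a transporter of brain endothelium, at 0.313, followed by Utrn of the periaxin list at 0.371. Prx had no near neighbour, the closest being Ahnak at 1.193 and Erbb2 at 1.195. With 2 samples, this distance reflects a similar level and a similar ratio and nothing more.

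Because Egr2 is a DNA-binding activator of myelin genes, the bases before the start of each gene were searched for GCGTGGG on either strand, a run contained in the textbook site of EGR factors. No other motif was searched. RefSeq start regions of assembly GRCm38.p6 were available for 4 of the 5 genes, with 11 starts in all: 5 of Egr2, 4 of Pmp22 and 1 each of Mal and Prx. Some of the regions searched for Egr2 and for Pmp22 overlap, so the 11 are not independent. In the 250 bases before the start, 1 of the 11 held a match, as did 4.30% of all 32851 starts in the table. The match lies 161 bases before the start of Prx, where the region is chr7:27499074-27499323 on the plus strand. It is shown 5′ to 3′ because it is the single match among these genes, with the match, read on the opposite strand, in capitals.
Prx: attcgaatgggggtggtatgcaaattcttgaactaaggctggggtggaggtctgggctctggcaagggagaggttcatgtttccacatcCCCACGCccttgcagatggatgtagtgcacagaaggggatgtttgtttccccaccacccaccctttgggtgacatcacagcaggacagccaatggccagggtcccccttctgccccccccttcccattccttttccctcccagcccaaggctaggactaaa
A match is a run of letters and not a measured binding site, and its absence from the other starts says only that these letters are not in those windows.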

How the data were processed

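The deposited file holds raw counts of ribosome-protected fragments for each transcript in each replicate, not scaled by the authors, together with annotated transcript, coding and untranslated lengths. Per the labels' protocols, polysomes from a 15 to 50% sucrose gradient were digested with RNase I for 2 h and fragments of 25 to 35 nucleotides were selected. The submitters' processing notes name Trimmomatic 0.36, Bowtie2 2.2.6, SAMtools and build GRCm38.p4, with no roles; the treatment of duplicates, strand and fragments that match several places is not given in the sources used here, so counts shared by near-identical or overlapping genes are uncertain.

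Counts were summed per gene over 109463 transcripts. TMM factors came from edgeR 4.0.16 (0.957 and 1.04) and size factors from DESeq2 1.42.0, over the genes whose mean count reached 10. As 1 group of 2 samples has no contrast, no quasi-likelihood fit was possible, and the exact binomial test (SciPy 1.17.1) was used for genes other than the 5. The steps were tested on simulated data. Named list genes are those with the highest mean CPM, at most 4 a list, unless said otherwise, plus nearest genes. Members, lists and tests were chosen with earlier results of these data known. The names Plllp and Gpr126 were not matched and 3 listed genes are not reported here. RNA-seq of the same brains was not used here, so levels are not translational efficiencies.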

Additional observations from a re-analysis of the deposited data

How the results depend on the processing

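No paired analysis was possible because both samples belong to 1 group. The log2 ratios of Pmp22 (0.75 to 1.00) and Mal (0.59 to 0.97) stayed above 0 and that of Egr2 (-0.46 to -0.05) below 0 under the 9 alternatives tried. These changed the scaling, the prior, the transcripts, the count filter for the scaling factors or a trend with footprint density. The -0.46 of Egr2 used Egr2-001 alone, at 3 and 6 footprints. Egr2-003, at 2 and 7, had the same summed count and was not tried. Prx ranged from -0.43, with its leading transcript alone, to 0.42. All these values stayed inside the counting intervals. The number of genes at least 1.5-fold apart was 2 in each of these settings and 0 at a bound of 2-fold. The filter settings removed none of the 4 genes. Mal, with a mean count of 22.5, was thus still counted when the scaling used a mean count of at least 100. With the transcript of highest count alone, the mean level was 16.6 CPM for Pmp22, 1.78 for Prx, 2.67 for Egr2 and 8.32 for Mal, because 1 transcript then stands for the gene and the total is smaller; with coding transcripts only, Egr2 had 4.87 CPM. Over all transcripts and whole transcript length, the mean level was 27.5 RPKM for Pmp22, 2.42 for Mal, 1.47 for Egr2 and 0.543 for Prx, in the same order. Over the longest coding sequence, Egr2 had 2.60 RPKM and Prx 0.530. Depth limits all genes but Pmp22, since replicate 1 holds at most 7 footprints for each of the others.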
